A study of Mus musculus with 12 samples.

Results

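Enteric neuropeptides and transmitter enzymes are the chemical vocabulary of the gut's own nervous system, and 10 such genes were followed here in colon tissue with and without chemically induced colitis. They are 7 genes for signalling peptides (Vip, Cartpt, Gal, Npy, Grp, Penk and Calcb), 2 for transmitter-making enzymes (Nos1 and Chat) and 1 for a receptor subunit (Ramp1). They were chosen by gene symbol, taking for each the assembled locus that carries an annotated Ensembl transcript. All 10 were found among 24394 gene symbols. Of these, 9 reached at least 1 FPKM in at least 3 libraries, the limit for testing that 12778 symbols passed, and Chat did not. FPKM is the number of fragments per kilobase of transcript, scaled to all mapped fragments of a library.

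The study asked how colitis, and blocking of the neurokinin-2 receptor, change the RNA that enteric glia translate. All 12 mice were C57BL/6 and carried Sox10::CreERT2+/- with Rpl22tm1.1Psam/J, the RiboTag allele, in which Cre recombination adds an HA tag to the ribosomal protein Rpl22. Ribosomes were pulled down through that tag from myenteric plexus of the distal colon, and their RNA was sequenced. Sox10 drives Cre in enteric glia, whereas most of the 10 genes are best known from enteric neurons.

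Every mouse ate chow with 400 mg/kg tamoxifen for 2 weeks and plain chow for 1 week. Each received a 0.1 ml enema of saline, or of 5 mg DNBS in 50% ethanol, a hapten that causes colitis. Vehicle mice were injected with 0.1% DMSO and the others with 0.5 mg/kg GR159897, which blocks the neurokinin-2 receptor, daily over 3 days starting 24 hours before the enema. Tissue was taken 48 hours after the enema. There were 3 libraries in each of the groups Saline_Vehicle, Saline_GR159897, DNBS_Vehicle and DNBS_GR159897. Females made up 2 of 3 in DNBS_GR159897 and 1 of 3 in the rest. The labels used here name no age. Ethanol is listed for the DNBS enema alone, so an effect of DNBS and an effect of ethanol cannot be told apart. No label ties the libraries to separate litters or days, so p-values measure the spread between these samples.

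Enteric neurons are classed by the transmitters they make. Inhibitory motor neurons contain nitric oxide synthase and vasoactive intestinal peptide and relax the muscle, excitatory motor neurons use acetylcholine, and other peptides such as galanin, enkephalin, CART and neuropeptide Y mark overlapping sets of motor, secretomotor and interneurons. Peptides are cut from longer precursors in dense-core vesicles and act on G-protein-coupled receptors. CGRP, the product of Calca and Calcb, acts on a receptor that is complete only when Ramp1 is paired with the calcitonin receptor-like receptor.

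Markers of glia, neurons and smooth muscle were present in 11 of the libraries. In these the summed level of 21 neuron markers (led by Gap43, Uchl1, Hand2 and Stmn3) lay between 474.8 and 702 FPKM, and that of 12 glia markers (led by S100b, Sox10 and Gpm6b) between 222 and 969 FPKM. Gfap, also a glia marker, has no value in the Saline_Vehicle libraries and was left out of the glia sums. The sum of 10 smooth muscle markers (led by Tagln, Cnn1, Acta2 and Des) was above both, between 2150 and 7138 FPKM. Which cells the RNA of the members came from was not tested. DNBS_GR159897 replicate 1 stood apart: its neuron sum was 35.5 FPKM and its glia sum 12.0 FPKM. Its sum for 10 epithelial markers (led by Muc2) was 1098 FPKM, against at most 38.8 in the others, and annotated loci held 22.6% of its total FPKM, against 53.8% to 95.1%. DNBS results of the 9 members tested are therefore given with and without that library. For other genes the fit without it is given where stated. DNBS_GR159897 replicate 1 was picked out from these same data. It is the lowest of all libraries for Gal, Cartpt, Npy, Nos1, Grp, Calcb, Vip and Ramp1, so leaving it out shifts their DNBS changes upward. The annotated share of total FPKM was also mostly lower after DNBS. It was 83.5% to 92.6% in Saline_Vehicle and 75.4% to 95.1% in Saline_GR159897. In DNBS_Vehicle it was 53.8% to 84.0%, and in DNBS_GR159897 22.6% to 64.5%. The main fit used unscaled values, and the part of this share in falls after DNBS was not tested. Results under 2 scalings are given below. The pulldown was bulk, so fewer cells of a type and less RNA per cell cannot be told apart.

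**Figure D1:**
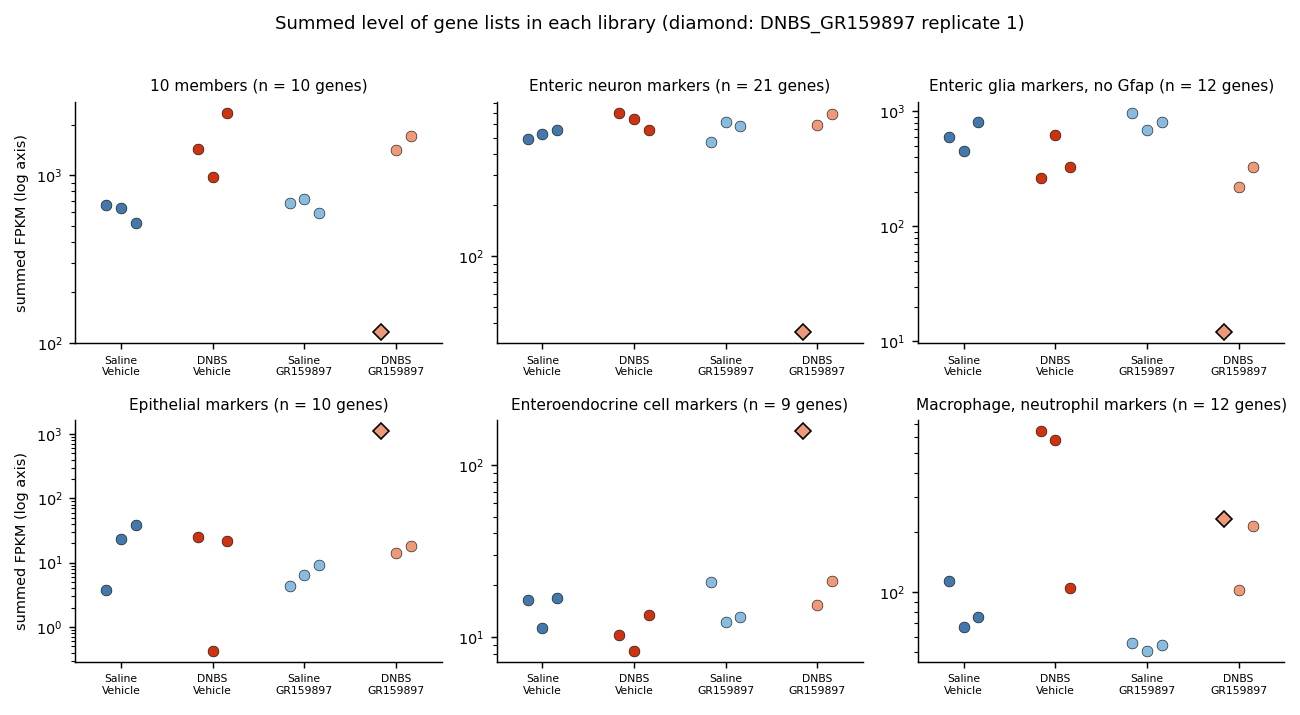
Summed FPKM of the 10 members and of 5 marker lists in each library, on log axes, by group (n = 3 libraries each). The diamond is DNBS_GR159897 replicate 1, at 116 FPKM for the members, 35.5 for neuron markers, 12.0 for the 12 glia markers other than Gfap and 1098 for epithelial markers.

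Levels per transcript length differed widely between members in saline-treated colon. In Saline_Vehicle the mean was 273 ± 4.18 FPKM for Ramp1 and 198 ± 62.9 for Gal (SD, n = 3), and every Ramp1 value lay above every Gal value. Vip followed at 43.5 ± 9.23, Penk at 33.7 ± 17.5 and Cartpt at 25.0 ± 11.8 FPKM (SD, n = 3), with ranges that overlapped from each to the next. Npy came next at 15.0 ± 2.45 FPKM (SD, n = 3), with a range that overlapped that of Cartpt. Calcb (6.46 ± 3.24), Grp (5.98 ± 5.24) and Nos1 (5.56 ± 2.29) could not be ordered beyond their spread, and Chat was last at 0.29 ± 0.36 FPKM (SD, n = 3 each). In DNBS_Vehicle the order changed at the top: Gal averaged 1092 ± 512 FPKM, and Penk (126 ± 76.5), Cartpt (119.9 ± 51.7), Ramp1 (95.3 ± 22.0) and Vip (94.2 ± 31.4) had ranges that overlapped one another (SD, n = 3 each). The lower-ranked genes kept to single digits there except Npy, at 43.6 ± 27.3 FPKM.

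**Figure D2:**
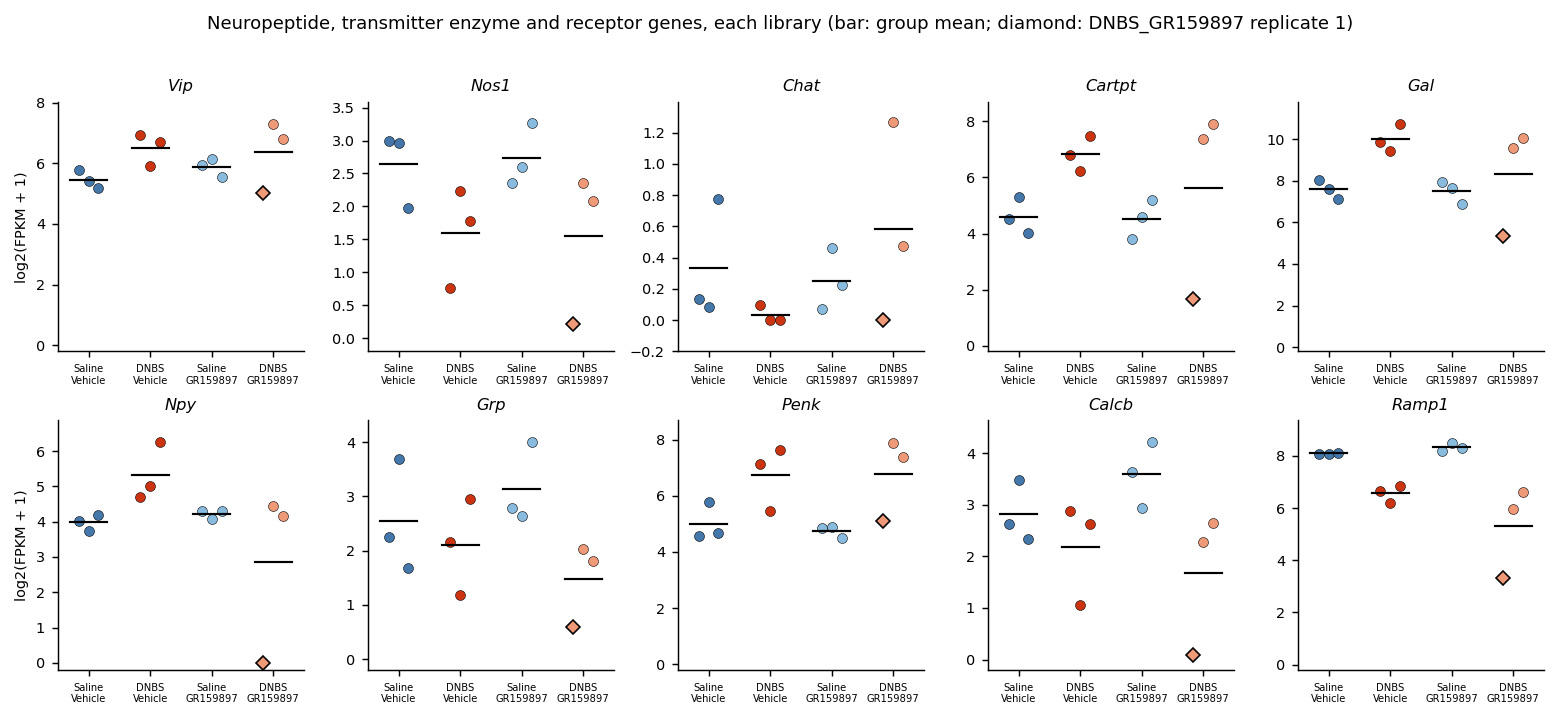
Level of each of the 10 genes as log2(FPKM + 1) in every library, by group (n = 3), with a bar at the group mean. Each panel has its own scale. The diamond, DNBS_GR159897 replicate 1, is the lowest of all libraries for Gal, Cartpt, Npy, Nos1, Grp, Calcb, Vip and Ramp1.

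Among the 7 peptide genes, Gal, Cartpt, Penk and Vip had higher values after DNBS in most libraries. So did Npy, which is described further below. Galanin, which acts mainly on inhibitory G-protein-coupled receptors and is known as a peptide raised in injured neurons, was the most abundant peptide transcript. Gal measured 262, 194 and 137 FPKM in Saline_Vehicle, 918, 690.1 and 1669 in DNBS_Vehicle, 244, 201 and 116 in Saline_GR159897, and 39.2, 766 and 1074 in DNBS_GR159897. Except in DNBS_GR159897 replicate 1, every DNBS library was above every saline library. Averaged over both drug arms, the log2 change of FPKM + 1 was 1.62 ± 0.72 (SE), with an adjusted p of 0.159 in limma. It was 2.37 ± 0.32 without that library, and there Gal rose with an adjusted p of 0.00228.

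Cartpt, the precursor of the CART peptides of enteric interneurons and descending motor neurons, had the same layout at a lower level. It measured 21.8, 38.1 and 15.1 FPKM in Saline_Vehicle, 109, 74.4 and 176 in DNBS_Vehicle, 12.8, 23.0 and 35.5 in Saline_GR159897, and 2.14, 164 and 237 in DNBS_GR159897. The 5 DNBS libraries other than DNBS_GR159897 replicate 1 all exceeded the 6 saline libraries. The averaged change was 1.67 ± 0.88 (SE; limma, adjusted p = 0.234), and 2.67 ± 0.36 without that library, where Cartpt rose (adjusted p = 0.00225).

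Penk encodes proenkephalin, the source of the enkephalins, opioid peptides that slow propulsion. It measured 23.0, 53.9 and 24.3 FPKM in Saline_Vehicle, 140.5, 43.4 and 194 in DNBS_Vehicle, 27.9, 28.5 and 21.5 in Saline_GR159897, and 33.0, 236 and 167 in DNBS_GR159897. The DNBS values were the higher ones, but the vehicle groups overlapped, because Saline_Vehicle replicate 2 lay above DNBS_Vehicle replicate 2. Penk rose on average over the arms, by 1.89 ± 0.53 (SE; limma, adjusted p = 0.0439). That call held without DNBS_GR159897 replicate 1 (2.32 ± 0.39, adjusted p = 0.00628) and without DNBS_Vehicle replicate 2. It was lost when any of the other 10 libraries was left out, with an adjusted p between 0.0545 and 0.102.

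Vip, the relaxing and secretion-promoting peptide of inhibitory motor and secretomotor neurons, changed less. Its values were 53.5, 41.7 and 35.4 FPKM in Saline_Vehicle, 119.8, 59.3 and 104 in DNBS_Vehicle, 60.5, 69.7 and 45.7 in Saline_GR159897, and 31.6, 156 and 111 in DNBS_GR159897. The vehicle groups did not overlap, while in the antagonist arm DNBS_GR159897 replicate 1 held the lowest value. The averaged change was 0.78 ± 0.42 (SE; limma, adjusted p = 0.243), and without that library 1.11 ± 0.27, where Vip rose (adjusted p = 0.0258).

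The library that stood apart still held 31.6 FPKM of Vip, 33.0 of Penk and 39.2 of Gal. Those levels were 40.6% and 37.8% of the mean of the other 11 libraries for Vip and Penk and 6.87% for Gal, while its neuron-marker sum was 6.04% of theirs. Npy was listed at 0 in it, and Cartpt was 2.60% of the mean of the others.

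Sequence before the RefSeq start was examined for Vip, Cartpt and Gal, since they rose together in the fit without that library. The 250 bases before the start of Vip and Gal, and 30 bases of the same window of Cartpt, are shown from the RefSeq promoter table (GRCm38.p6). They read 5′ to 3′ along the gene's strand, with the letters TGACG or CGTCA, the core of the cyclic AMP response element, in capitals.
Vip, chr10:5638968-5639217, plus strand: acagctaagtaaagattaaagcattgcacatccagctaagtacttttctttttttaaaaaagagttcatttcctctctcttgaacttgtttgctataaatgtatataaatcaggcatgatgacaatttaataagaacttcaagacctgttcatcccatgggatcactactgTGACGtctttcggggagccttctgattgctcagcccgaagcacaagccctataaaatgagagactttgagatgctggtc
Gal, chr19:3414545-3414794, minus strand: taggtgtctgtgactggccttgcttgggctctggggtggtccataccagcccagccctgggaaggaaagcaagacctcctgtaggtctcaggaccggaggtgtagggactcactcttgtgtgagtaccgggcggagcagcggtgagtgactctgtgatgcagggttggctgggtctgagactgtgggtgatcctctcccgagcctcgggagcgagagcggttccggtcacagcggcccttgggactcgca
Cartpt, chr13:99900777-99900806, minus strand: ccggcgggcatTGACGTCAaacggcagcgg
The Cartpt window holds the full palindrome TGACGTCA, from 112 to 105 bases before the start, and the Vip window holds the core TGACG alone, from 79 to 75 bases before it. Neither strand of the Gal window holds the core. Among 32851 promoters of the same length, 1.55% hold TGACGTCA and 17.8% hold TGACG on either strand, and the palindrome itself contains the core on both strands. Of the 7 members with an entry, Vip, Cartpt, Nos1 and Chat hold the core and Gal, Npy and Ramp1 do not, so members that rose and members that did not are found on both sides. Penk, Grp and Calcb have no entry. No member's window holds an AP-1 site (TGANTCA, in 6.75% of promoters) or a STAT site (TTCNNNGAA, in 7.02%), searched on both strands with N as any base. The RefSeq starts of Vip, Gal, Npy and Ramp1 are also the first base of the gene in GENCODE. Those of Cartpt, Chat and Nos1 lie 408, 80 and 85807 bases inside the GENCODE gene, and the whole Cartpt window falls within the span of that gene. These matches are descriptions of letters, and binding was not measured.

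Of a list of 16 genes known to respond to cyclic AMP or calcium (led by Junb, Fos, Nr4a1 and Atf3), 15 were tested in the averaged comparison and 1 passed in each direction. Over all genes 2.76% passed higher and 6.83% lower. Sik1, a salt-inducible kinase, rose by 1.12 ± 0.26 and Nr4a1, an immediate early nuclear receptor, fell by 1.98 ± 0.44 on the log2 scale (SE; limma, adjusted p = 0.0236 and 0.0202). The list's median change was 0.26, beside -0.18 over all 12777 genes tested. Sik1 was between 0 and 0.25 FPKM in the saline libraries and between 0.54 and 2.74 in the DNBS libraries. Both calls held without DNBS_GR159897 replicate 1 (Sik1 1.16 ± 0.28 and Nr4a1 -1.72 ± 0.39), where Atf3 passed as well and the median was 0.53.

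Neuropeptide Y, an inhibitory peptide of enteric and sympathetic neurons, had its highest values in DNBS_Vehicle. Npy measured 15.1, 12.5 and 17.3 FPKM in Saline_Vehicle, 24.9, 31.1 and 74.9 in DNBS_Vehicle, 18.9, 15.9 and 18.6 in Saline_GR159897, and 0, 20.8 and 16.8 in DNBS_GR159897. It was higher in every DNBS_Vehicle library than in any Saline_Vehicle library, and lower in every DNBS_GR159897 library than in any DNBS_Vehicle library. The change with DNBS was 1.33 ± 0.92 under vehicle (SE; limma, adjusted p = 0.59) and -1.36 ± 0.92 under the antagonist (adjusted p = 0.386). Without DNBS_GR159897 replicate 1 the change under the antagonist was 0.07 ± 0.45 (adjusted p = 0.961). The interaction of DNBS and GR159897 was -2.69 ± 1.29, with an adjusted p of 0.957. It was -1.26 ± 0.60 without DNBS_GR159897 replicate 1, with an adjusted p of 1.

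Grp and Calcb had lower values after DNBS in the antagonist arm, and neither passed a test. Gastrin-releasing peptide, which stimulates muscle and secretion, measured 3.75, 12.0 and 2.22 FPKM in Saline_Vehicle, 3.44, 1.28 and 6.78 in DNBS_Vehicle, 5.90, 5.22 and 15.0 in Saline_GR159897, and 0.51, 3.06 and 2.51 in DNBS_GR159897. The vehicle groups overlapped and the antagonist groups did not, and the averaged change of Grp was -1.05 ± 0.45 (SE; limma, adjusted p = 0.143). Calcb, the gene of beta-CGRP and the form made by intrinsic enteric neurons, measured 5.15, 10.2 and 4.07 FPKM in Saline_Vehicle, 6.32, 1.07 and 5.17 in DNBS_Vehicle, 11.5, 6.66 and 17.5 in Saline_GR159897, and 0.07, 3.85 and 5.29 in DNBS_GR159897. It had the same layout as Grp, with an averaged change of -1.28 ± 0.48 (SE; limma, adjusted p = 0.108). Leaving out DNBS_GR159897 replicate 1 gave -0.83 ± 0.44 for Grp and -0.88 ± 0.39 for Calcb (adjusted p = 0.25 and 0.175). Calcb has a paralog, Calca, whose reads could be split between the genes, and Calca was at most 3.12 FPKM in any library.

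Both transmitter enzymes were at low levels. Nos1, the neuronal nitric oxide synthase of inhibitory motor neurons, measured 6.99, 6.76 and 2.92 FPKM in Saline_Vehicle, 0.70, 3.71 and 2.44 in DNBS_Vehicle, 4.12, 5.03 and 8.57 in Saline_GR159897, and 0.16, 4.14 and 3.25 in DNBS_GR159897. Values were mostly lower after DNBS, but the groups overlapped in the vehicle arm and in the antagonist arm. The averaged change of Nos1 was -1.11 ± 0.41 (SE; limma, adjusted p = 0.101), and -0.78 ± 0.34 without DNBS_GR159897 replicate 1 (adjusted p = 0.162). With library weights Nos1 passed, at -1.01 ± 0.31 (SE; limma, adjusted p = 0.0317). The antisense gene Gm26995 overlaps exons of Nos1, and the deposited values carry no strand.

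Chat, choline acetyltransferase, which makes acetylcholine, was near the lower limit of the table everywhere. It measured 0.10, 0.06 and 0.71 FPKM in Saline_Vehicle, 0.07, 0 and 0 in DNBS_Vehicle, 0.05, 0.38 and 0.17 in Saline_GR159897, and 0, 1.41 and 0.39 in DNBS_GR159897. Only DNBS_GR159897 replicate 2 exceeded 1 FPKM. The mean log2(FPKM + 1) was higher after DNBS by 0.014, with p = 0.96 in an exact two-sided permutation test within drug arms (400 arrangements, smallest possible p 0.005). The table splits Chat over 4 loci, of which the other 3 carry no annotated transcript. Slc18a3, the vesicular acetylcholine transporter gene that lies within the span of Chat, was higher than Chat in 11 of the libraries, at 2.52 to 12.6 FPKM, and was listed at 0 in DNBS_GR159897 replicate 1.

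Ramp1, the subunit that gives the CGRP receptor its ligand preference, had the lowest adjusted p of the members. It measured 269.8, 271 and 277 FPKM in Saline_Vehicle, 99.4, 71.6 and 115 in DNBS_Vehicle, 293, 363 and 313 in Saline_GR159897, and 9.11, 60.8 and 97.8 in DNBS_GR159897. All 6 DNBS libraries lay below all 6 saline libraries, as they did for 4.29% of all genes. Ramp1 fell by 2.28 on the log2 scale (SE 0.50) averaged over the arms (limma, adjusted p = 0.0196). The fall was 1.79 (SE 0.23; adjusted p = 0.00208) without DNBS_GR159897 replicate 1. The call held in 11 of the 12 fits that left out 1 library, and the adjusted p was 0.0527 without Saline_Vehicle replicate 3.

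The partner of Ramp1 was scarce. Calcrl, which encodes the calcitonin receptor-like receptor, was between 0.09 and 0.95 FPKM and did not pass the limit for testing. Ramp3, which directs the same receptor towards adrenomedullin, ranged from 1.07 to 34.7 FPKM, with the highest value in DNBS_GR159897 replicate 2. Its averaged change was -0.82 ± 0.56 with all libraries (SE; limma, adjusted p = 0.363), and 0.23 ± 0.43 with library weights (adjusted p = 0.741).

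**Figure D3:**
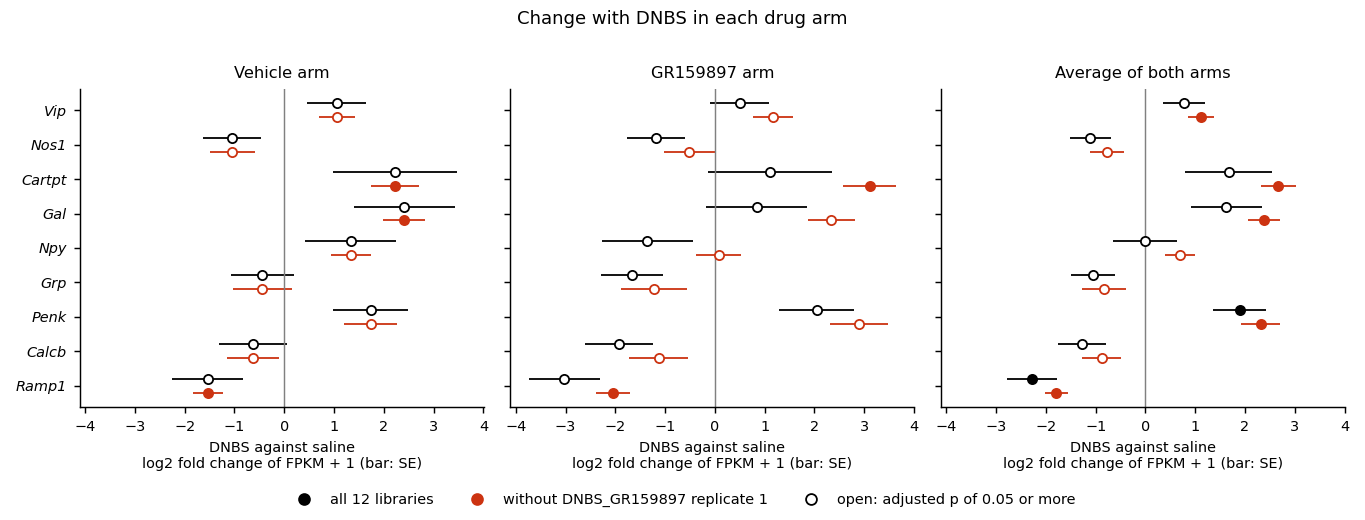
Change with DNBS against saline, as log2 fold change of FPKM + 1 with its SE, for the 9 genes tested, in the vehicle arm, the antagonist arm and their average (limma, all 12 libraries in black, without DNBS_GR159897 replicate 1 in red). Filled points passed an adjusted p of 0.05: with all libraries Penk (1.89) and Ramp1 (-2.28) in the average, and without that library also Cartpt (2.67), Gal (2.37) and Vip (1.11). Without that library they also include Cartpt (2.22), Gal (2.41) and Ramp1 (-1.53) in the vehicle arm. In the antagonist arm they are then Cartpt (3.11) and Ramp1 (-2.05).

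Counted together, 2 of the 9 genes tested passed in the averaged comparison, Penk higher and Ramp1 lower, where 9.6% of all 12777 genes passed (2.76% higher and 6.83% lower). The median change of the 9 was -0.015, beside -0.18 over all genes. Without DNBS_GR159897 replicate 1, 5 of 9 passed (Vip, Cartpt, Gal and Penk higher, Ramp1 lower) where 9.74% of 12482 genes did (3.9% higher and 5.84% lower), and the median was 0.70 beside -0.13. Of all calls in the averaged comparison 28.8% were higher, against 39.9% when libraries were scaled to their annotated total and 50.7% after quantile normalisation. Penk and Ramp1 passed under both of these scalings, and Npy was the only member whose averaged change differed in sign between them and the unscaled values. When all 6 DNBS libraries were set against all 6 saline libraries, Ramp1 was the only member whose groups did not overlap, lower in all (4.29% of genes were), and none was higher in all (1.74% of genes were). With that library left out, Cartpt and Gal were higher in all 5 (3.66% of genes were) and Ramp1 was lower in all 5 (4.74%).

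The vehicle arm alone, DNBS_Vehicle against Saline_Vehicle, gave no member past the threshold in limma, where 0.321% of all genes passed. Gal (2.41 ± 1.01, SE; adjusted p = 0.347) and Penk (1.73 ± 0.75, adjusted p = 0.36) had an unadjusted p under 0.05, which makes 2 of 9, as 12.6% of all genes had. Groups did not overlap for Vip, Cartpt, Gal and Npy, which were higher (9.53% of all genes were), or for Ramp1, which was lower (14.9%). The spread in this fit is shared over all 12 libraries. When DNBS_GR159897 replicate 1 was left out, the same changes passed for 3 members, where 1.47% of genes did: Cartpt (2.22 ± 0.47, adjusted p = 0.0451), Gal (2.41 ± 0.42, adjusted p = 0.0224) and Ramp1 (-1.53 ± 0.31, adjusted p = 0.0375).

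In the antagonist arm, DNBS_GR159897 against Saline_GR159897, again 0 of 9 passed in limma, where 1.38% of genes did, and 4 of 9 had an unadjusted p under 0.05, as 22.7% of all genes had. Ramp1 came nearest, at -3.03 ± 0.71 (SE; adjusted p = 0.0563), and passed when DNBS_GR159897 replicate 3 was left out (adjusted p = 0.0282). Penk was higher in every DNBS library (6.67% of genes were), and Grp, Calcb and Ramp1 were lower in every one (17.6%). Without replicate 1, 2 libraries were left in DNBS_GR159897, and Cartpt (3.11 ± 0.53) and Ramp1 (-2.05 ± 0.35) passed with an adjusted p of 0.0319 each, where 0.36% of genes did. Then Vip, Cartpt, Gal and Penk were higher in both remaining libraries than in any Saline_GR159897 library (12.9% of genes were), and Grp, Calcb and Ramp1 were lower (20.7%).

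The arms share no library, and the sign of the DNBS change was the same in both for 8 of the 9 members, all but Npy, and for 69.7% of all genes. Leaving out DNBS_GR159897 replicate 1 made it the same for all 9 and for 71.4% of genes. The side-by-side changes without that library were 1.06 and 1.17 for Vip, 2.22 and 3.11 for Cartpt, 2.41 and 2.34 for Gal, 1.73 and 2.90 for Penk, and -1.53 and -2.05 for Ramp1, with vehicle first.

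GR159897 itself moved no member past the threshold. In saline-treated colon 0 of 9 passed in limma, where 0% of all genes passed, and 0 had an unadjusted p under 0.05, where 1.7% of genes had. The changes ran from -0.27 ± 0.75 for Penk to 0.78 ± 0.68 for Calcb (SE). Ramp1 was higher in every Saline_GR159897 library than in any Saline_Vehicle library (3.04% of genes were), by 0.24 ± 0.71 with an adjusted p of 1. In DNBS-treated colon 0 of 9 passed in limma, where 0% of all genes passed, and 1, Npy, had an unadjusted p under 0.05, where 8.13% of genes had. Npy changed by -2.45 ± 0.92 (SE; limma, adjusted p = 0.607) and by -1.01 ± 0.45 without replicate 1 (adjusted p = 1), and its groups did not overlap (6.89% of genes were lower in that way). Averaged over the enemas, and in the interaction, 0 of 9 passed in limma, where 0% of all genes passed, and 0 had an unadjusted p under 0.05, where 4.36% and 3.58% of genes had. The interaction ran from -2.69 ± 1.29 for Npy to 0.31 ± 1.06 for Penk (SE), with adjusted p from 0.957 to 0.988. These intervals are wide, so a p above the threshold does not show that GR159897 left the members as they were.

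Other transmitter genes that passed in the main fit were all lower after DNBS. Of 27 listed genes of this kind (led by Tac1, Ass1, Slc18a2 and Sst), 15 were tested in the averaged comparison. In limma 4 fell and 0 rose, where 6.83% of all genes fell and 2.76% rose. The list's median change was -0.89 beside -0.18 over all genes. Dbh, which makes noradrenaline, fell by 2.06 on the log2 scale (SE 0.40; adjusted p = 0.0127), and Ache, which breaks down acetylcholine, by 1.21 (SE 0.27; adjusted p = 0.0214). Ass1 and Asl, the pair of enzymes that rebuild the arginine used by nitric oxide synthase from citrulline, fell by 2.71 (SE 0.57; adjusted p = 0.0156) and 1.33 (SE 0.31; adjusted p = 0.0239). The same 4 passed without DNBS_GR159897 replicate 1 and under both scalings. At the level of single libraries, Ass1 was between 20.1 and 83.0 FPKM after saline and between 0.49 and 17.5 after DNBS. Dbh was between 5.49 and 22.0 FPKM after saline and between 0.05 and 3.11 after DNBS. Neither overlapped between enemas, nor did Ache or Asl, where 4.29% of all genes were lower in this way. Nmu of the same list did not overlap either, at 18.2 to 37.5 FPKM after saline and 0.14 to 13.3 after DNBS. It did not pass in the main fit.

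Tac1, the precursor of substance P and neurokinin A, had the highest mean of that list over the 12 libraries. It did not pass with all libraries (0.66 ± 0.51, SE; limma, adjusted p = 0.422), but did with library weights (1.12 ± 0.32, adjusted p = 0.0249). Pdyn also rose in the weighted fit (0.96 ± 0.27, adjusted p = 0.0233). Nmu (-1.35 ± 0.37, adjusted p = 0.0214) and Slc18a3 (-1.06 ± 0.30, adjusted p = 0.0233) fell there, as did Dbh, Ache, Ass1 and Asl. Sst, the somatostatin gene, stood out in 2 saline libraries, Saline_Vehicle replicate 3 at 80.7 FPKM and Saline_GR159897 replicate 1 at 102 FPKM, and was at most 7.25 FPKM elsewhere. Slc18a2, the vesicular monoamine transporter, was also highest in these libraries, at 76.5 and 99.3 FPKM.

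**Figure D4:**
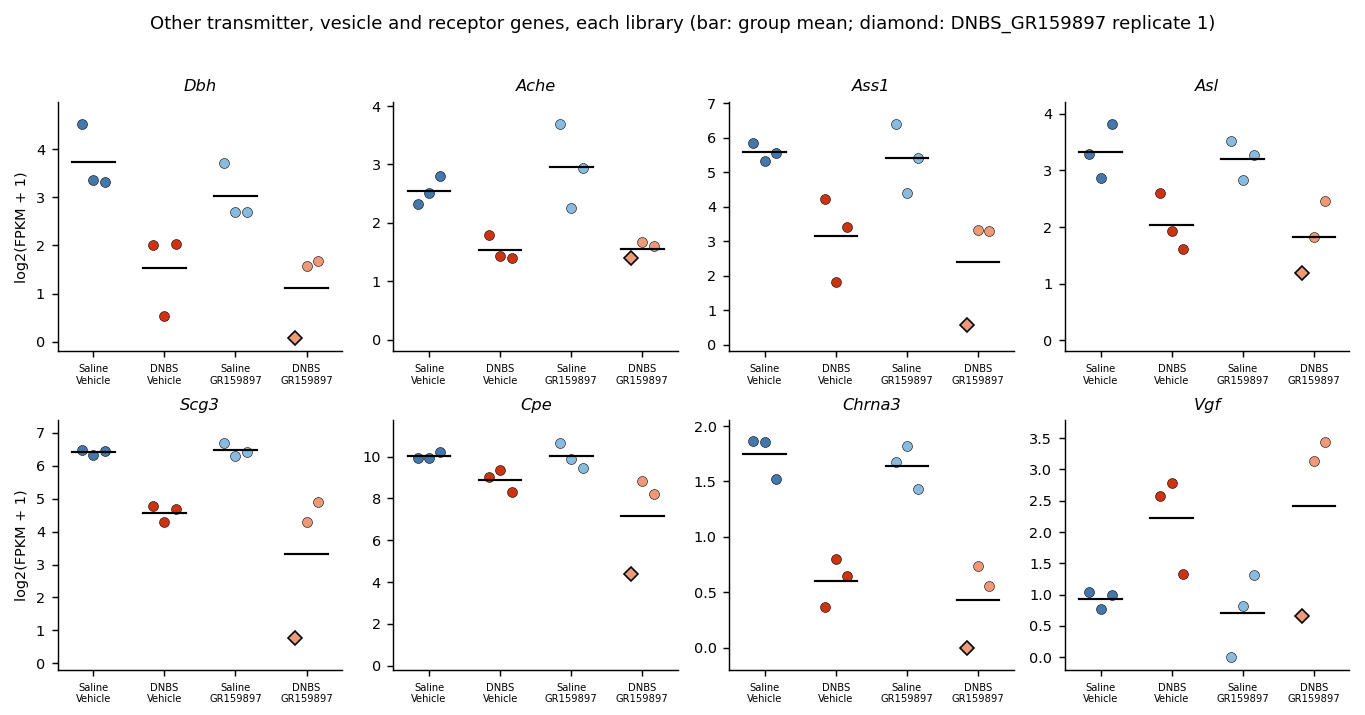
Level of 8 other genes as log2(FPKM + 1) in every library, by group (n = 3), with a bar at the group mean and the diamond for DNBS_GR159897 replicate 1. Dbh, Ache, Ass1, Asl, Scg3, Cpe and Chrna3 are lower in all 6 DNBS libraries than in any saline library (4.29% of all genes were). Vgf is higher in the 5 DNBS circles than in any saline library (3.66% of all genes were).

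Few of the genes that process and store peptides passed. All 13 listed genes (led by Cpe, Ctsl, Pcsk1n and Scg3) were tested in the averaged comparison, with a median change of -0.17. In limma 1 fell and 0 rose, where 6.83% of all genes fell and 2.76% rose. Scg3, a granin that helps to sort cargo into dense-core vesicles, fell by 2.50 (SE 0.58; adjusted p = 0.0236), from 77.8 to 104 FPKM after saline to 0.71 to 28.9 FPKM after DNBS. Without DNBS_GR159897 replicate 1, Scg3 (-1.86 ± 0.23), Cpe, the carboxypeptidase that trims peptide precursors (-1.30 ± 0.30), and Pcsk1n, an inhibitor of prohormone convertase (-0.93 ± 0.21), fell, with adjusted p of 0.0019, 0.0214 and 0.0198. In that fit Vgf, a granin-like peptide precursor induced by neurotrophins, rose by 1.93 ± 0.33 (adjusted p = 0.00628), against 1.49 ± 0.46 with all libraries (adjusted p = 0.0591). Ctsl, the lysosomal protease also placed in secretory vesicles, changed by -1.31 ± 0.64 with all libraries (SE; adjusted p = 0.199), and by -0.56 ± 0.33 with library weights (adjusted p = 0.24).

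Most listed receptors and targets of the members were near or below the limit for testing. Of 29 listed receptor and target genes (led by Ogfr, Ramp3, Adcyap1r1 and Gucy1b3), 13 were tested in the averaged comparison, with a median change of -0.38. Past the threshold 1 fell and 0 rose, where 6.83% of all genes fell and 2.76% rose. Chrna3, the nicotinic receptor subunit that carries fast transmission between enteric neurons, fell by 1.18 (SE 0.22; limma, adjusted p = 0.00994), from between 1.70 and 2.64 FPKM after saline to between 0 and 0.74 FPKM after DNBS. It was the only one of the 13 to pass without DNBS_GR159897 replicate 1 as well (-1.07 ± 0.21, adjusted p = 0.0109). Vipr1, a receptor for Vip, was at 13.7 FPKM in DNBS_GR159897 replicate 1 and at most 0.06 elsewhere. Vipr2 was at most 1.46 FPKM, the galanin receptors Galr1 and Galr2 at most 0.87 and 2.36, and the neuropeptide Y receptors Npy1r, Npy2r, Npy4r and Npy5r at most 1.59, 1.75, 2.76 and 0.06. The receptor Grpr for Grp was at most 0.29 FPKM, and the opioid receptors Oprd1, Oprm1 and Oprk1 were at most 1.08, 0.10 and 1.16. Ogfr was higher, between 2.36 and 11.7 FPKM.

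Some genes of the marker lists passed with the enema too, and their part in the members' changes was not tested. In the averaged comparison 1 of 18 neuron markers tested fell and 0 rose (Syp, -1.57 ± 0.43, SE; limma, adjusted p = 0.0416), with a median of -0.65. Of 11 glia markers 3 fell and 0 rose (Sox10, Erbb3 and Gpm6b), with a median of -1.47. Over all genes 6.83% fell past the threshold and 2.76% rose. The call of Syp was lost after quantile normalisation (adjusted p = 0.0607) and with sex as a term (adjusted p = 0.0653). That of Erbb3 was lost after quantile normalisation (adjusted p = 0.104), with scaling to the annotated total (adjusted p = 0.082) and with sex as a term (adjusted p = 0.0641), and that of Sox10 with sex as a term (adjusted p = 0.0583). Without DNBS_GR159897 replicate 1 the medians were -0.24 and -0.86, Syp and Etv1 fell and Gap43, a growth-cone protein, rose by 1.44 ± 0.21 (adjusted p = 0.00377), while of the glia markers Erbb3 and Gpm6b fell and Sox10 did not pass (-2.72 ± 0.90, adjusted p = 0.0837). The neuron-marker sum was 495 to 559 FPKM in Saline_Vehicle and 559 to 702 in DNBS_Vehicle. That of the 12 glia markers other than Gfap was 448 to 811 and 262 to 619. The neuron sum is led by Gap43, at 63.9 to 78.6 FPKM after saline and 156 to 259 after DNBS outside DNBS_GR159897 replicate 1. In the vehicle arm 13 of the 18 neuron markers tested were lower and 5 higher, where 7259 of 12777 genes were lower. Of 9 macrophage and neutrophil markers tested (led by Lyz2, S100a9, S100a8 and C1qb) 4 rose and 0 fell, where 2.76% of all genes rose. Those that rose were Cd68, S100a8, S100a9 and Itgam, and of these Cd68, S100a8 and Itgam passed without DNBS_GR159897 replicate 1. The sum of the list was 51.1 to 114 FPKM after saline and 103 to 643 FPKM after DNBS.

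None of the remaining marker lists had a gene past the threshold in the averaged comparison with all libraries. This covers smooth muscle (10 tested, led by Tagln, Cnn1, Acta2 and Des, median -0.34), interstitial cells of Cajal and fibroblasts (9 tested, led by Col1a1, Dcn, Etv1 and Dpt, median -0.37) and epithelium (7 tested, led by Muc2, Epcam, Krt18 and Krt19, median 1.15). It also covers enteroendocrine cells (3 tested, Pyy, Chga and Chgb, median -0.044) and endothelium with mesothelium (6 tested, led by Cldn5, Lyve1, Msln and Upk3b, median 0.21). At an unadjusted p under 0.05 the counts were 1, 3, 0, 0 and 2 in that order, where 28.3% of all genes had such a p. The medians of these lists include DNBS_GR159897 replicate 1, whose epithelial sum was 1098 FPKM. Outside that library the enteroendocrine sum, a list that shares Chga and Chgb with the vesicle genes, was 8.33 to 21.2 FPKM and that of the epithelial markers at most 38.8 FPKM.

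The genes whose levels ran most alike were looked up for each member over the 12 libraries, which share the enema groups and the library that stands apart, so r (Pearson, of log2(FPKM + 1)) is a description. Ramp1 ran with Scg3 (r = 0.99, and 0.97 without that library), Ccdc90b and Dnajc3 (0.98 each). Cartpt ran with Col4a2 (0.98, and 0.98 without), Syt6 (0.97) and Ss18l2 (0.97). Penk ran with Ucn2 (0.97, and 0.97 without), a urocortin of 0 to 42.2 FPKM, and with Fosl1 (0.95) and Spred3 (0.94). Gal ran with Gm11599 (0.97, and 0.95 without), Hsp90aa1 (0.95) and Gm5921 (0.95). Vip ran with Gm14547 (0.93), Gm45774 (0.91) and Tgfbrap1 (0.91). Grp had another member, Calcb, as its nearest gene (0.91, and 0.87 without), and then Rbsn (0.90) and 1190007I07Rik (0.88). Calcb ran with Isg15 (0.96), 1190007I07Rik and Rbsn (0.94 each), so that a pair of neighbours was shared with Grp. Nos1 ran with Fam162a (0.92), Ski (0.92) and a locus joining Prrg3 and Fate1 (0.91). The neighbours of Npy, Crispld2 (0.96), Phlda3 (0.95) and Nenf (0.95), dropped to 0.76, 0.74 and 0.73 when DNBS_GR159897 replicate 1 was left out.

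On GRCm38 (GENCODE) the members lie on 10 different chromosomes. The genes named most here are Vip at chr10:5639218-5647617, Cartpt at chr13:99898489-99901091, Gal at chr19:3409915-3414544, Penk at chr4:4133531-4138819 and Ramp1 at chr1:91179822-91225196. Exons of the antisense gene A830012C17Rik overlap Penk, and without strand the reads of these cannot be told apart.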

How the data were processed

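Ribosome-bound RNA of 12 mice was measured in 4 groups of 3. The authors deposited FPKM values per assembled locus with 2 decimals. Per the submitters' processing notes the tools included StringTie 1.3, HISAT2 2.0, FastQC 0.10.1 and cutadapt 1.10, listed without their roles. The genome build behind them: not given in the sources used here. Sequencing depth is unknown, so no counting interval is given, and FPKM falls for every gene when a few loci take a larger share. Labels' protocols give SMART-seq v4 on 1 ng of RNA.

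Of 99547 loci, 24432 carried an annotated Ensembl transcript and gave 24394 symbols (highest mean kept). Values were analysed as log2(FPKM + 1), which understates changes of low genes, for genes that reached 1 FPKM in 3 or more libraries. A model with 1 coefficient per group over all 12 libraries (8 residual degrees of freedom) was fitted in R 4.3.3 by limma 3.58.1 (prior trended and robust), with two-sided tests and Benjamini-Hochberg adjustment over all genes at 0.05. Gfap, blank in Saline_Vehicle, left 12777 genes in comparisons with that group. The fit was tested on simulated data. The members, lists and tests were chosen with earlier results of these data known. Named were all members, list genes past the threshold in any of 7 comparisons, the 4 highest of each list, direct receptors, and the 3 genes most alike each member. Alternatives changed the pseudocount, filter, scaling, prior, library weights, sex term, replicate block, loci and libraries. Positions came from GENCODE vM21. Python 3.11.15, numpy 2.4.6, pandas 2.3.3 and matplotlib 3.10.9 were used for tables and plots.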

Additional observations from a re-analysis of the deposited data

Results flagged for a closer look

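Gal has a further locus in the table, without an annotated transcript, used only in the alternative that sums all loci of a name. It measured 0.86, 0.77 and 0.11 FPKM in Saline_Vehicle, 5.29, 2.39 and 6.71 in DNBS_Vehicle, 1.01, 0.88 and 0.77 in Saline_GR159897, and 0.73, 5.40 and 2.40 in DNBS_GR159897. It drew attention because its highest value, 6.71 FPKM in DNBS_Vehicle replicate 3, lay above every saline library, in data outside the main measurement. The locus and the annotated Gal locus were both above all saline libraries in the same 5 DNBS libraries and below the highest of them in DNBS_GR159897 replicate 1. The difference was not tested.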

How the results depend on the processing

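Members past the threshold were recounted under each alternative. With DNBS averaged over the arms the main count was 2. It was 1 with log2(FPKM + 0.1), with no filter on low values, with sex as a term and with the sum of all loci of a name, where Penk was lost each time (adjusted p from 0.0537 to 0.0995). It was 6 with library weights (Vip, Cartpt, Gal and Penk higher, Nos1 and Ramp1 lower). It was 5 with weights and sex together, and 5 when scaled to the annotated total without DNBS_GR159897 replicate 1 (these last 2 were added after the data were seen). In the vehicle arm, 0 became 3 with library weights, 2 with only the groups compared, 3 with scaling and without that library, and 1 with weights and sex. In the antagonist arm, 0 became 1 with scaling to the annotated total, with quantile normalisation or with an untrended prior, 6 with library weights, 4 with scaling and without that library, and 3 with weights and sex. Leaving out 1 library at a time gave 0 to 5 members for the average, 0 to 3 in the vehicle arm and 0 to 2 in the antagonist arm. The highest count came each time without DNBS_GR159897 replicate 1, and the count of 0 for the average came without Saline_Vehicle replicate 3. The cause of these moves was not tested. Counts for GR159897 and for the interaction stayed at 0 under every alternative run. No member's change reversed its call, and of the alternative values for single members 1551 stayed on the same side of the threshold, 44 passed it only in the alternative and 16 only in the main fit. Genes called in all in the averaged comparison ranged from 402 to 3009, beside 1226.

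With the replicate number as a block the averaged count was 1, with Penk lost (adjusted p = 0.061), and no other count changed. Same-numbered libraries of different groups had correlations of their deviations from -0.088 to 0.202, with 2 of 18 over 0.1, so the numbers were not taken to pair the mice. The number of mice per group and the unknown depth limit precision, most of all for Chat and the receptors near 0 FPKM.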
